A study of Mus musculus with 21 samples.

Results

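The RAS, RAF, MEK and ERK genes Hras, Nras, Araf, Braf, Map2k1, Map2k2 and Mapk3 were described in murine pancreatic ductal adenocarcinoma (PDAC) cells made resistant to the MEK inhibitor (MEKi) trametinib. They were chosen by symbol, are 7 of the 34478 rows of the normalized count table, and all 7 were among the 19300 genes that reached 10 normalized counts in at least 3 samples. RNA-seq covered 6 primary cell lines (#3, #4, #6, #7, #9 and #10), each grown from a tumor of a genetically engineered mouse. All lines, the untreated ones included, carried the alleles Ptf1awt/Cre;Kraswt/LSL-G12D;Trp53loxP/loxP, in which the Ptf1a-driven Cre acts in cells of the pancreatic lineage. Parental cells (6 samples) had never met the drug, and resistant cells (6 samples) were grown in trametinib at 100 times the IC50 of their line. P5 (3 samples, lines #3, #7 and #9) and P12 (6 samples) were resistant cells taken off the drug for 5 or 12 passages, although the descriptions of the P5 samples of lines #7 and #9 give 12 passages. Each line was sequenced once in each state it was sampled in, so the lines are the replicates of a state and a change in a single line has no replicate of its own. Ages of the animals are not given in the sources used here.

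RAS proteins are small GTPases that, when loaded with GTP, bring RAF kinases to the membrane. RAF phosphorylates MEK, and MEK phosphorylates ERK, which acts on cytosolic substrates and on transcription factors. Active ERK also restrains the steps above it through negative feedback, and trametinib binds both MEK proteins and keeps them from passing the signal on. Mutant RAS drives most pancreatic cancers, which is why MEK has been a drug target in this tumor.

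The sums of normalized counts ranged from 28.6 to 37.1 M per sample, and the reads behind them were estimated at 24.1 to 42.6 M. The lowest value of any of the 7 genes was 287 normalized counts, against 2.31 to 4.06 for a floor of 3 reads, so every value lay far above that floor. As a check of the cell type, the summed level of 7 ductal and epithelial markers was 18363 to 283578 in parental and 1693 to 210019 in resistant samples, with Epcam between 0 and 3.61 in all samples. Of 6 of these markers tested, 2 fell in resistant cells, Cdh1 (log2 fold change -7.11) and Sox9 (-3.06). When the lines were blocked 4 fell, Krt8 (-1.81) and Krt18 (-2.76) included. Between resistant and parental cells 15.6% of all genes were called by limma (adjusted p below 0.05), and 26% with the lines blocked. An unadjusted p below 0.05 was reached by 29.2% of all genes without blocks. The summed level of 6 fibroblast markers, which are also genes of mesenchymal tumor cells, was 85.0 to 24787 in parental samples. In resistant samples it was 457.8 to 577600. Lum lay between 0 and 0.91 in parental and between 0 and 139 in resistant samples. Of 5 fibroblast markers tested between resistant and parental cells, 0 passed by limma in the fit without blocks (2 had an unadjusted p below 0.05) and 3 rose when the lines were blocked, and the part of these shifts in the results below was not tested. In bulk RNA, fewer cells of one kind and less RNA per cell cannot be told apart.

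Braf rose and Nras fell in resistant cells. Among the 7 genes these were the calls at an adjusted p below 0.05 (limma, Benjamini-Hochberg over all 19300 genes), against 15.6% of all genes called in this comparison and 26% when the lines were blocked, where the same 2 were called. When a change of more than 1 log2 unit was required as well and the adjusted p had to be below 0.01, 0 of the 7 passed, against 5.3% of all genes. Map2k1 was lower in 6 of 6 resistant lines, Hras lower in 5 and Map2k2 higher in 5, none of them past the test. Within single lines, Mapk3 rose more than 2-fold in line #10 and fell more than 2-fold in line #9, Hras and Map2k1 fell most in line #3, and Hras rose in line #7. After 12 passages without drug Braf had come down again, with 1 of 7 genes called against resistant cells (6.22% of all genes) and 2 of 7 with the block (12.7%).

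**Figure D1:**
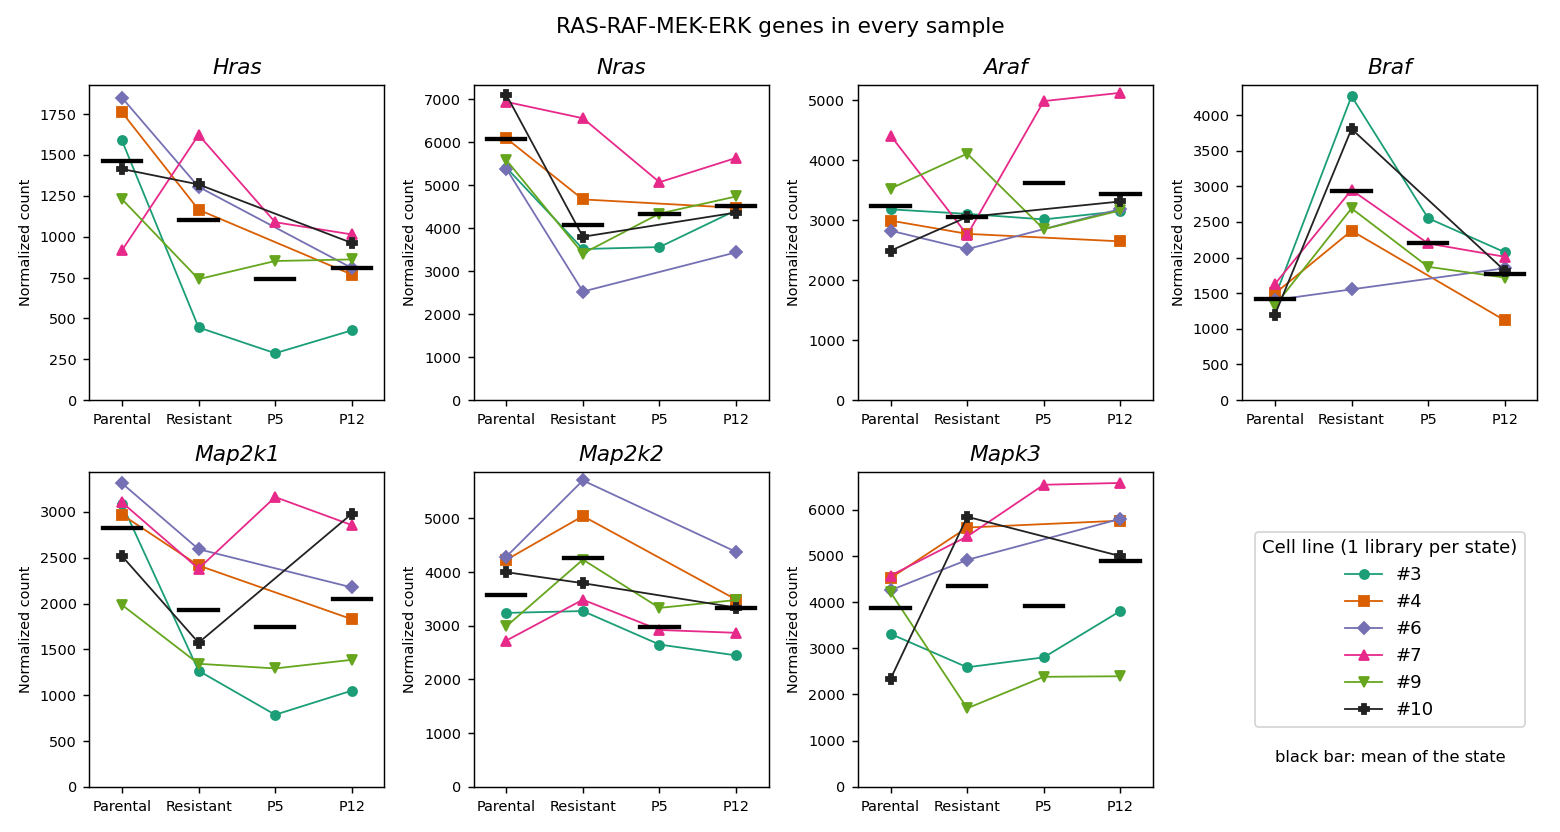
Normalized counts (y axis, linear, from 0) of the 7 genes in every sample by state (x axis), with 1 colored line for each cell line and a black bar for the mean of the state. Braf peaked in the resistant state in 5 of 6 lines, and Mapk3 separated lines #3 and #9, which stayed at 3807 or less, from the others in the resistant and later states.

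To put the genes in order, levels were taken as normalized counts per kb of 1 annotated coding transcript for each gene (2358 bases for Araf, for example). In parental cells Mapk3 was highest at 2148 ± 487 per kb (SD, n = 6). Map2k2 (1487 ± 281), Araf (1374 ± 285), Nras (1361 ± 172) and Map2k1 (1161 ± 201) followed, and among these 4 neighbors in the order did not differ by more than their spread. Hras (516 ± 124) and Braf (146 ± 15.1) were lowest and stood apart from each other. The value of Braf depends on the transcript used, since its 2 annotated coding transcripts are 2253 and 9728 bases long and the longer one was taken here.

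Nras encodes a RAS GTPase that is itself mutated in other cancers, and Hras one of the closest relatives of it. Nras lies on chromosome 3 (103058285 to 103067914, plus strand, GRCm38) and Hras on chromosome 7 (141189105 to 141194005, minus strand). In parental cells Nras had 5408 normalized counts in line #3, 6089 in #4, 5384 in #6, 6936 in #7, 5585 in #9 and 7101 in #10. In resistant cells it had 3514, 4668, 2525, 6555, 3409 and 3799 in the same order. Nras was thus lower in 6 of 6 resistant lines, and the states overlapped only through line #7, which kept almost its parental level. The mean log2 fold change was -0.63 (SE 0.18, adjusted p = 0.0235 by limma, 0.00197 with the block). This call was lost when the parental and resistant samples were fitted alone (adjusted p = 0.0554) and when line #3, #4, #6, #9 or #10 was left out (adjusted p = 0.0533 to 0.0957), but the log2 fold change was -0.54 to -0.68 in these fits.

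Nras stayed below the parental level after withdrawal in every line. P12 samples had 4416, 4472, 3437, 5632, 4737 and 4362 normalized counts from line #3 to line #10, and P5 samples had 3559 (#3), 5068 (#7) and 4338 (#9). The P12 range of 3437 to 5632 overlapped the parental range of 5384 to 7101 only through line #7. The log2 fold change of P12 against parental cells was -0.44 (SE 0.18, adjusted p = 0.253, 0.0518 with the block), which did not pass the test. The 20 expressed genes around Nras had a median log2 change below 0 in all 6 resistant lines. It was -1.18 in line #3, -0.68 in #4, -1.11 in #6, -0.51 in #7, -0.59 in #9 and -1.08 in #10, beside changes of Nras of -0.62, -0.38, -1.09, -0.08, -0.71 and -0.90. The order of the lines differed between the 2 measures, with line #3 lowest for the neighbors and line #6 for Nras. With 5 genes on each side the median of line #4 was 0.043. Over the 816 expressed genes placed on chromosome 3 the median was -0.12 in line #3, 0 in #4 and -0.53 in #6. In lines #7, #9 and #10 it was -0.28, -0.17 and -0.54.

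Because Nras and Braf were the genes that passed the test, the 250 bases before their RefSeq starts (GRCm38.p6) are shown 5′ to 3′ on the strand of the gene, for Nras chr3:103058035-103058284 (plus strand) and for Braf chr6:39725464-39725713 (minus strand). Capitals mark matches to any of 4 motifs searched on both strands: the GC box GGGCGG, the ETS core CCGGAA, the cAMP response element (CRE) TGACGTCA and the AP1 motif TGANTCA.
Nras: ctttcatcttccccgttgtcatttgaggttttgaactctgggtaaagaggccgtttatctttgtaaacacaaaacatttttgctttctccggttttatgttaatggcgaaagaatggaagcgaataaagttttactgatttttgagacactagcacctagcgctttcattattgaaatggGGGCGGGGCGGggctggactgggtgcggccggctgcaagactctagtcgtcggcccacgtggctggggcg
Braf: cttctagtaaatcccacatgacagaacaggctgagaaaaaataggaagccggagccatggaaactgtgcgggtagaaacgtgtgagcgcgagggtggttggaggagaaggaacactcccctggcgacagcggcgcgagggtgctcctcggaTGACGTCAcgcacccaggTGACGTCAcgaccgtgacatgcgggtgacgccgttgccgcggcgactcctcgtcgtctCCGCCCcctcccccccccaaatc
Nras had 2 GC boxes that share 1 base, and no match to the other motifs. Braf had 1 GC box, on the opposite strand, and 2 CRE matches. Of 32851 RefSeq promoters of this length, 32.7% held a GC box, 12.0% the ETS core, 1.55% the CRE and 6.75% the AP1 motif. Hras and Map2k1 held 3 and 4 GC boxes and 1 ETS core each, Araf 1 ETS core and Map2k2 1 GC box. The Braf window was 62% G and C with 24 CpG sites and the Nras window 48.4% with 14, beside medians of 52.4% and 6 over all promoters. A match describes letters only, and binding or methylation at these windows is not analysed here. No promoter entry was matched for Mapk3.

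Hras fell in most lines but rose in line #7. Its normalized counts in parental cells were 1588 (#3), 1761 (#4), 1850 (#6), 916 (#7), 1229 (#9) and 1414 (#10). In resistant cells they were 445, 1165, 1305, 1623, 740 and 1319 in the same order. Line #7, the lowest parental line, became the highest resistant line, and line #3 became the lowest. The within-line log2 change was -1.83 in line #3 and 0.82 in line #7, and the fitted change over all lines did not pass the test (log2 fold change -0.49, SE 0.34, adjusted p = 0.361, 0.206 with the block).

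The loss of Hras in line #3 was kept off the drug, and the gain in line #7 was mostly not. Line #3 had 287 normalized counts at P5 and 427 at P12, log2 changes of -2.47 and -1.89 from its parental cells. Line #7 had 1088 at P5 and 1014 at P12, where the log2 change from its parental cells was 0.15. The remaining P12 samples had 768 (#4), 808 (#6), 860 (#9) and 961 (#10). P12 levels were below parental levels in 5 of 6 lines and overlapped the parental range only through the low parental sample of line #7. The fitted P12 change of -0.87 (SE 0.34) did not pass the test (adjusted p = 0.223, 0.0746 with the block). Around Hras, the median log2 change of the 20 neighboring genes in resistant cells was -0.54 in line #3 and -0.86 in line #7, opposite in sign to the gain of Hras in line #7. With 5 genes on each side the median in line #3 was -0.99, and with 20 genes on each side the median in line #7 was -0.31. Over the 1281 expressed genes placed on chromosome 7 the median was -0.42 in line #3 and -0.39 in line #7.

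Braf, the RAF kinase with the strongest basal activity toward MEK, was the gene with the clearest change. It lies on chromosome 6 (39603237 to 39725463, minus strand). Parental cells had 1445 (#3), 1496 (#4), 1406 (#6), 1629 (#7), 1327 (#9) and 1200 (#10) normalized counts, the smallest spread of the 7 genes in this state (SD 0.15 on the log2 scale). Resistant cells had 4265, 2377, 1554, 2948, 2691 and 3805 in the same order. Braf was higher in 6 of 6 lines, at least doubled in lines #3, #9 and #10, and line #6 alone remained within the parental range. The log2 fold change was 0.99 (SE 0.20, adjusted p = 0.00331 by limma, 0.00140 with the block). In line #3 the neighborhood moved too: with 5 expressed genes on each side, 10 of 10 were higher with a median log2 change of 1.59, beside 1.56 for Braf, while the 20 genes with 10 on each side had a median of 0.40. In line #10, where Braf changed by 1.66, the median of the 20 neighbors was 0.30. With 5 genes on each side 9 of 10 were higher there, with a median of 0.45. The medians of the other lines with 5 on each side were 0.44 (#4), 0.027 (#6), -0.016 (#7) and 0.20 (#9). Over the 839 expressed genes placed on chromosome 6 the median was 0.35 in line #3 and 0.21 in line #10.

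Braf came down once the drug was gone. P5 samples had 2552 (#3), 2198 (#7) and 1870 (#9), and P12 samples had 2075 (#3), 1119 (#4), 1850 (#6), 2011 (#7), 1719 (#9) and 1816 (#10). In the 3 lines with all states, resistant cells were highest, then P5, then P12, then parental cells. Line #6 differed from the rest, with its highest value at P12, and line #4 fell below its parental level. P12 against resistant cells gave a log2 fold change of -0.69 (SE 0.20), with an adjusted p of 0.04998, just under the limit, and 0.0222 with the block. That call was lost without line #3, #4, #7, #9 or #10 (adjusted p = 0.0955 to 0.168, fits without the block) and with several other settings. Against parental cells P12 differed by 0.30 (SE 0.20, adjusted p = 0.503), which did not pass.

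Araf, the RAF kinase with the weakest kinase activity of its family, is on the X chromosome (20797814 to 20860519, plus strand). Parental cells had 3181 (#3), 2993 (#4), 2826 (#6), 4412 (#7), 3529 (#9) and 2492 (#10) normalized counts. Resistant cells had 3106, 2773, 2518, 2755, 4110 and 3053. The ranges overlapped almost fully and the lines moved both ways, with a log2 fold change of -0.08 (SE 0.18, adjusted p = 0.815). Line #7 showed the largest change, a log2 change of -0.68 that was reversed at P5 (4987) and P12 (5124), the highest Araf values of the series. The other samples off the drug lay between 2647 and 3313.

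Map2k1 and Map2k2 encode MEK1 and MEK2, the targets of trametinib. Map2k1 lies on chromosome 9 (64185770 to 64253631, minus strand). Its parental levels were 3083 (#3), 2969 (#4), 3312 (#6), 3103 (#7), 1984 (#9) and 2518 (#10) normalized counts, and its resistant levels 1266, 2415, 2593, 2380, 1342 and 1572. Map2k1 was lower in 6 of 6 resistant lines, but the ranges overlapped and the log2 fold change of -0.59 (SE 0.31) did not pass the test (adjusted p = 0.213, 0.0557 with the block). Line #3 had the largest change, with a log2 change of -1.28, followed by 787 normalized counts at P5 and 1049 at P12, the lowest values of their states. Its 20 neighboring genes had a median log2 change of 0.44 in resistant cells, and -0.04 with 5 genes on each side. The remaining P12 samples had 1829 (#4), 2176 (#6), 2855 (#7), 1386 (#9) and 2978 (#10), so that line #10 came back above its parental level and line #7 close to it.

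Map2k2 moved less and mostly the other way. It lies on chromosome 10 (81105915 to 81133975, plus strand). Parental cells had 3238 (#3), 4226 (#4), 4285 (#6), 2723 (#7), 2988 (#9) and 3997 (#10), and resistant cells 3273, 5041, 5705, 3484, 4230 and 3792. The level was higher in 5 of 6 resistant lines, by a log2 fold change of 0.24 (SE 0.17) that did not pass the test (adjusted p = 0.360, 0.0897 with the block). P12 samples had 2448 (#3), 3487 (#4), 4375 (#6), 2868 (#7), 3479 (#9) and 3338 (#10), lower than resistant cells in 6 of 6 lines. The log2 fold change of P12 against resistant cells was -0.35 (SE 0.17), which passed only with the cell line as a block (adjusted p = 0.258 without and 0.0356 with it).

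Mapk3 encodes ERK1 and lies on chromosome 7 (126759601 to 126765819, plus strand). Parental cells had 3310 (#3), 4519 (#4), 4255 (#6), 4572 (#7), 4208 (#9) and 2337 (#10) normalized counts, and resistant cells 2588, 5612, 4912, 5419, 1700 and 5844. Line #10 went from the lowest parental to the highest resistant level, and line #9 from the middle of the parental range to the lowest resistant level. These changes, 1.32 and -1.31 on the log2 scale, left a fitted log2 fold change of 0.07 (SE 0.33, adjusted p = 0.917). Without line #10 the fitted value was -0.18, so its sign rested on that line.

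Both changes of Mapk3 were still present off the drug. At P12 line #10 had 4993 normalized counts, a log2 change of 1.09 from its parental cells, and line #9 had 2394, a change of -0.81. Within a line, the resistant and P12 changes are measured from the same single parental sample, so they are not independent. Against the median of the other lines in the same state, Mapk3 in line #10 lay at -0.86 (log2) in parental cells. It lay at 0.25 in resistant and -0.21 in P12 cells. Line #9 lay at -0.016, -1.67 and -1.27 in these states. Line #9 at P5 had 2381, close to its P12 value. The other P12 samples had 3807 (#3), 5760 (#4), 5800 (#6) and 6577 (#7), and P5 samples 2803 (#3) and 6537 (#7). In resistant cells the 20 genes next to Mapk3 had a median log2 change of 0.17 in line #10 (11 higher, 9 lower) and -0.40 in line #9 (8 higher, 12 lower). With 20 genes on each side these medians were 0.19 and -0.07. The middle 10 of the 20 neighbors in line #10 changed by -0.37 to 0.46. Line #10 was singled out for its change, and no replicate of it was sequenced.

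**Figure D2:**
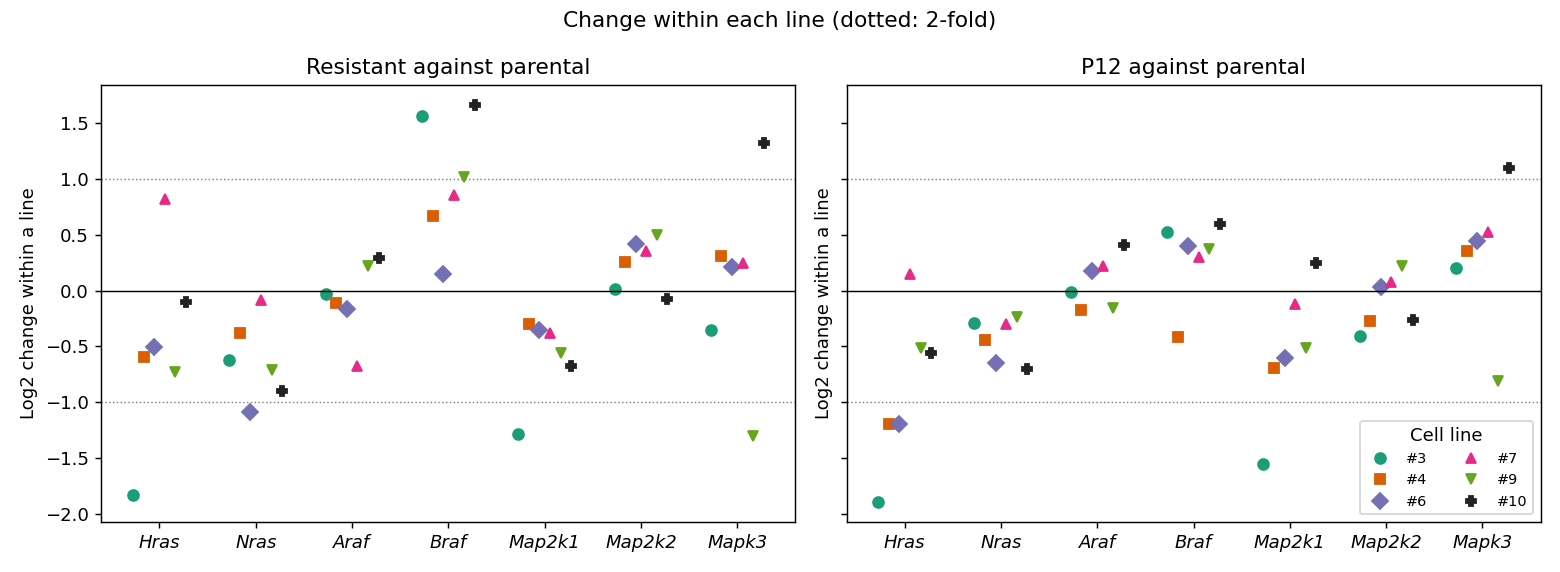
Log2 change within each cell line (y axis) from parental cells to resistant cells (left) and to P12 (right) for the 7 genes (x axis), with 1 point for each line and dotted lines at a 2-fold change. Mapk3 in line #10 (1.32 and 1.09) was the 1 at least 2-fold gain that was there in both panels, and Hras and Map2k1 in line #3 were below the lower dotted line in both. Both panels take the change of a line from its same single parental sample, which was the lowest of the parental samples for Mapk3 in line #10.

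Over lines and genes, 8 of 42 changes from parental to resistant cells were at least 2-fold (19.0%), namely 3 in line #3, 2 in line #9, 2 in line #10, 1 in line #6 and 0 in lines #4 and #7. In the same lines the share of all expressed genes was 40.8% (#3), 40.1% (#4), 37.7% (#6), 38.9% (#7), 38.6% (#9) and 37% (#10). Among the 9036 genes with a mean of at least 500 normalized counts, nearer to the level of these 7 genes, it was 23.9% to 28.2%. The share of the 7 genes was thus no higher than the background in either set. The SD over lines of the log2 change was 0.87 for both Hras and Mapk3, 0.57 for Braf, 0.37 for Map2k1, 0.36 for Nras, 0.35 for Araf and 0.23 for Map2k2, beside a median of 0.85 over all expressed genes and 0.56 over those with a mean of at least 500.

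The sum of squares of the log2 levels over the parental, resistant and P12 samples was split into line, state and the rest. These shares are not corrected for chance, and with more lines than states, noise alone gives line a larger share than state. State took 60.7% for Braf and 45.5% for Nras, beside a median of 19.8% over expressed genes. Line took 64.4% for Map2k2, 55.0% for Mapk3, 47.9% for Araf and 43.7% for Map2k1, beside a median of 35.8%. For Hras line, state and the rest took 28.0%, 35.6% and 36.4%. State took 5.58% for Araf and 5.70% for Mapk3, and the lines moved both ways in these 2 genes.

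**Figure D3:**
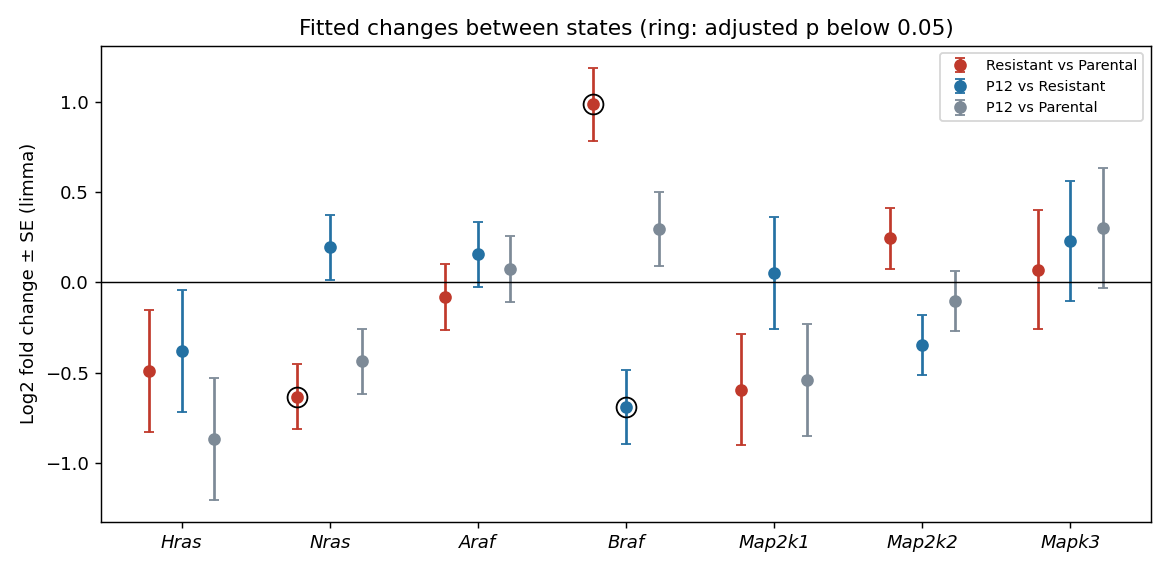
Fitted log2 fold changes with their SE (y axis, limma without the block) of the 7 genes (x axis) for 3 comparisons of states, with rings around those at an adjusted p below 0.05. The rings are on Braf (0.99 and -0.69) and Nras (-0.63), and the bars of Hras, Map2k1 and Mapk3, at an SE of 0.31 or more, are the longest.

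The remaining comparisons called none of the 7 genes by limma. For P12 against parental cells, 0 of 7 passed without and 0 with the block, beside 0.658% and 5.32% of all genes, and 2 had an unadjusted p below 0.05 (Hras and Nras), as did 15.3% of all genes (3 of 7 and 23.8% with the block). For P5 against resistant cells, 0 of 7 passed in either fit, beside 2.07% and 2.78% of all genes, and 1 had an unadjusted p below 0.05 (Map2k2 in the fit without the block), as did 15.4% of all genes (1 of 7 and 15.8% with the block). For P5 against parental cells, 0 of 7 passed in either fit, beside 0.0466% and 0.119% of all genes, and 4 had an unadjusted p below 0.05 (Hras, Nras, Braf and Map2k1), as did 10.4% of all genes (3 of 7 and 14.4% with the block). The P5 state has 3 samples and the comparisons share samples with each other.

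Ratios of a pair of genes in the same sample do not depend on how libraries were scaled, and were taken as a description. They are not corrected for transcript length, which shifts their level but not their change between states. Per kb, the parental mean of Braf over Araf was -3.22 in place of the -1.17 given next. Braf over Araf was -1.17 ± 0.20 (log2 ratio of normalized counts, SD, n = 6) in parental, -0.11 ± 0.48 in resistant and -0.95 ± 0.28 in P12 cells. It rose in 6 of 6 lines with resistance, by 1.07 ± 0.51, and fell in 6 of 6 from resistant to P12. Map2k2 over Map2k1 went from 0.34 ± 0.33 to 1.17 ± 0.37 and then to 0.78 ± 0.56, again up in 6 of 6 lines, by 0.84 ± 0.29, and down in 6 of 6 from resistant to P12. At P12 the MEK ratio was still above that of the parental cells in 5 of 6 lines and was lower in line #10. Nras over Hras was 2.09 ± 0.50, 1.95 ± 0.68 and 2.52 ± 0.45 in the 3 states and rose in 6 of 6 lines from resistant to P12, by 0.57 ± 0.31. At P5 Map2k2 over Map2k1 was 1.75 in line #3, -0.11 in #7 and 1.37 in #9, above the resistant value in line #3 and below it in the others. Braf over Araf at P5 was -0.24, -1.18 and -0.61 in these lines, which left line #9 at its resistant value.

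**Figure D4:**
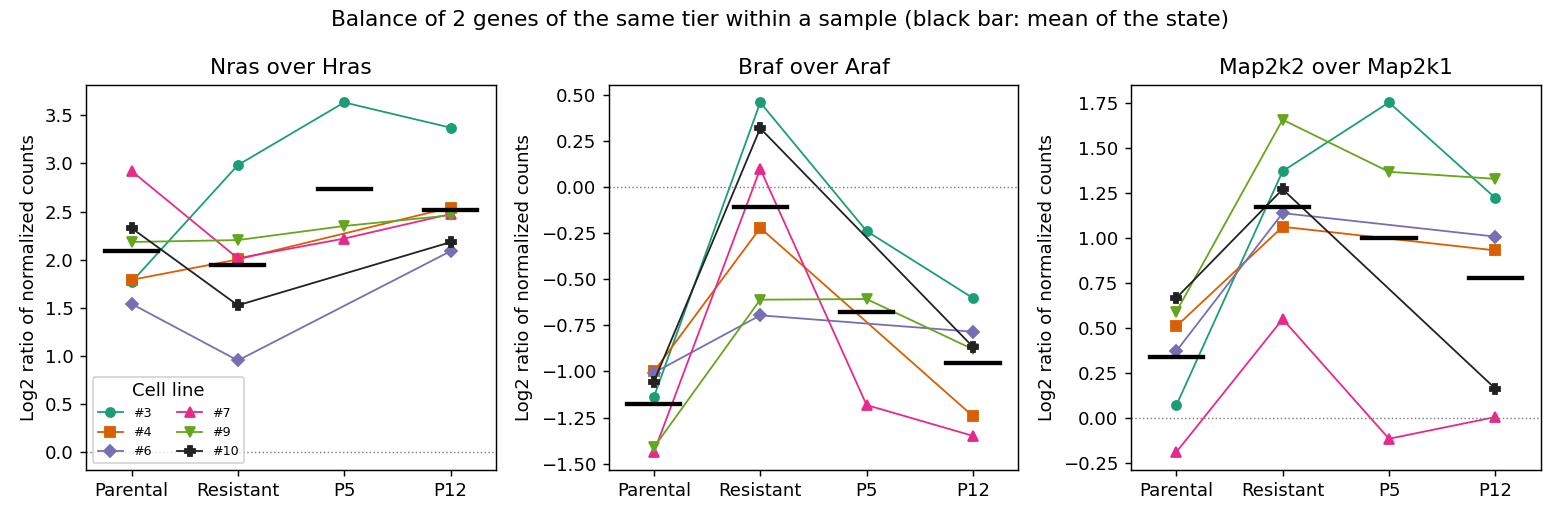
Log2 ratio of normalized counts of 2 genes in the same sample (y axis) by state (x axis), for Nras over Hras, Braf over Araf and Map2k2 over Map2k1, with 1 colored line for each cell line and a black bar for the mean of the state. Braf over Araf and Map2k2 over Map2k1 rose in 6 of 6 lines from the parental to the resistant state, by means of 1.07 and 0.84.

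Across the 21 samples, Hras and Map2k1 had the highest correlation among the 21 pairs of these genes (Pearson r = 0.80, n = 21 samples of 6 lines, which are not independent). Araf and Map2k2 had the lowest (r = -0.50). Among the 3 expressed genes most like each member were, with Pearson r of log2 values over the 21 samples, Rhog (0.92) and Psmd13 (0.92) for Hras and Commd2 (0.89), Fam120a (0.88) and Tpm3 (0.88) for Nras. Psmd13 lies 0.307 Mb from Hras, and Commd2 and Tpm3 are on the chromosome of Nras. The most alike to Araf were Ttc5 (0.89), Gripap1 (0.88), also on the X chromosome, and Heca (0.87), and to Braf Gm15445 (0.85), Trpm7 (0.83) and Tmem30a (0.83). For Map2k1 they were Taok3 (0.92), Epn1 (0.91) and Exph5 (0.91), for Map2k2 Cyc1 (0.86), Creld2 (0.85) and 2510039O18Rik (0.85), and for Mapk3 Sfxn3 (0.87), Vps37c (0.85) and Clic1 (0.85).

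Beside these genes, the output of the pathway changed far more. Of 15 genes transcribed in response to active ERK, 13 fell and 0 rose in resistant cells, beside 15.6% of all genes called. Their median log2 fold change was -3.12, beside -0.0049 over all genes. From resistant cells to P12, 13 rose and 0 fell, beside 6.22% of all genes called. The list was chosen with earlier results of these data known. The largest changes in resistant cells were those of the ETS factors Etv4 (-10.46) and Etv5 (-8.09), the feedback inhibitor Spry4 (-8.27) and the ERK phosphatase Dusp4 (-7.80). At P12 against parental cells 0 of the 15 were called in the fit without the block and 1 fell with it, Epha4 (-2.09). The shares of all genes called there were 0.658% without and 5.32% with the block. The log2 fold changes of the 7 members in resistant cells lay between -0.63 and 0.99.

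The lists of regulators were read beside the share of all genes called, which was 15.6% between resistant and parental cells and 6.22% between P12 and resistant cells (26% and 12.7% with the block). Several counts below are near these shares, and the values are log2 fold changes from limma, called at an adjusted p below 0.05 over all genes. The first list held 12 tested genes, the exchange factors, which load RAS with GTP, and adaptors. Of these, 1 rose in resistant cells, the docking protein Gab1 (2.76), and 1 fell, the adaptor Shc1 (-0.65). With the block 3 fell, the exchange factors Sos2 (-0.63) and Rasgrf2 (-3.22) being added. From resistant cells to P12 Gab1 fell (-1.85) and Shc1 rose (0.75), and with the block the phosphatase Ptpn11 fell too (-0.70). Of 9 GTPase activating proteins, which switch RAS off, 0 rose and 2 fell in resistant cells, Rasa3 (-2.34) and Rasa2 (-2.02), and Rasa4 (-2.52) fell as the third with the block. From resistant cells to P12 Rasa3 (2.53) and Rasa2 (1.44) rose, and with the block 4 did, Rasa4 (2.90) and Rasa1 (1.03) included.

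Of 16 scaffolds and modulators, 0 rose and 2 fell in resistant cells, Iqgap2 (-8.48) and Iqgap1 (-1.25), and Cnksr2 (-3.36) fell as the third with the block. Iqgap2 rose again from resistant cells to P12 (7.02), where Ppp1cc fell with the block (-0.53). Of 8 genes of RAS lipid modification, 0 passed in resistant cells without the block (1 at an unadjusted p below 0.05), while Rce1 rose (0.56) and Fntb fell (-0.70) with it. From resistant cells to P12 Icmt of this list fell with the block (-0.57). Of 8 kinases that ERK phosphorylates, Mknk1 rose (0.93) and Rps6ka1 fell (-1.15) in resistant cells, and from resistant cells to P12 Rps6ka2 alone rose (1.95). Of 3 other MAP3K genes tested, which can act on MEK without RAF, Map3k8 rose in resistant cells (2.17). Map3k1 changed by -1.001 with an adjusted p of 0.0503, and it fell with the block (0.00608). From resistant cells to P12 the change of Map3k8 was -0.12 and did not pass.

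Of 7 relatives of the members, 1 rose in resistant cells, the RAS-like GTPase Mras (1.95), and 2 fell from resistant cells to P12, Mras (-2.40) and Rras2 (-1.74). Between P12 and parental cells none of these lists had a call by limma without the block, beside 0.658% of all genes. In each list 1 or 2 genes had an unadjusted p below 0.05, as did 15.3% of all genes. With the block, Rasal1 (4.93), Rps6ka2 (1.83) and Map3k8 (2.05) were higher at P12, beside 5.32% of all genes called. No result about the lists is read from these calls.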

How the data were processed

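RNA of 21 samples was sequenced after polyA selection with a stranded kit. The table deposited by the authors holds signal values, that is gene-level counts normalized with DESeq2 1.18 after trimming with Skewer (0.1.116 or 0.2.2), quantification with Salmon 0.12 and import with TXImport 1.6. The authors name mm10. Raw counts were not recovered (60.7% to 74.8% of low values fell on multiples of a step, within 0.05 of a step), so no count model was run. More than 1 sequencer model was used without assignment to samples, so comparisons within sequencing batches were not made.

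Samples were grouped by their titles. Values were log2 transformed with a pseudocount of 1, and a gene was kept if 3 or more samples reached a value of 10 (19300 of 34478). Tests used limma 3.58.1 (R 4.3.3, eBayes with trend) on the 4 states together, and p-values were adjusted by Benjamini-Hochberg and called below 0.05. The methods of the study name no covariate. Same-numbered samples come from the same cell line, and deviations from the state means correlated within lines at 0.16 to 0.35 between parental and resistant cells, 0.34 to 0.52 between resistant and P12 cells and 0.0082 to 0.51 between parental and P12 cells. The fit with the line as a block is given where it changes a call of a gene in the comparisons described.

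Positions and transcripts are from GENCODE M21 (GRCm38), and gene order and promoters from RefSeq, with 16240 of 19300 expressed genes matched (84.1%). The lists of pathway genes and markers came from general knowledge. The 7 genes and all lists were chosen with earlier results of these data known. Genes named are the 7 members, the 3 most correlated genes of each, and at most 4 called genes of a list and comparison. Some further genes that these rules cover are not reported here. The fit without the block was tested on simulated data for resistant against parental cells. In these, 200 of the 19300 genes were changed, drawn from all levels, with independent noise and no effect of line. That is a smaller share than the 15.6% called in the real data, which makes the adjusted limit stricter. The fit recovered 21 of 100 genes changed by 1 log2 unit and 56 of 100 changed by 2, with 2 false calls. These rates belong to that setting and are not rates for the 7 genes. A change of 1 log2 unit or less that did not pass can still have been missed. Alternatives were pseudocounts of 0.5 and 8, no filter or a mean of at least 100, upper quartile rescaling, no trend, a stricter threshold, 2 states alone, the block, leaving out each line, and 5 or 20 neighbors on each side. The window of 250 bases and the comparison with genes of mean 500 or more were added after the data were seen. Python 3.11.15, numpy 2.4.6, pandas 2.3.3 and matplotlib 3.10.9 were used.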

Additional observations from a re-analysis of the deposited data

Results flagged for a closer look

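In 42 groups of 6 values (levels in a state and changes within lines), 4 had 1 line whose gap to the nearest other line was above Dixon's critical value for 6 samples (0.625 of the range), a gap that chance gives in about 1 of 20 groups. Hras at P12 was lowest in line #3 at a log2 level of 8.74 (427 normalized counts), with the next line at 9.59. Araf at P12 was highest in line #7 at 12.32 (5124 normalized counts), with the next line at 11.69. Braf at P12 was lowest in line #4 at 10.13 (1119 normalized counts), with the next line at 10.75. The change of Braf from parental to P12 cells was also lowest in line #4, at -0.42, with the next line at 0.30. The gain of Mapk3 in line #10 did not pass this limit.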

How the results depend on the processing

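The call of Braf in resistant cells held in all fits run except under the stricter limits (a log2 change beyond 1 with an adjusted p below 0.01). Between resistant and parental cells 2 of the 7 genes were called, and 0 were under the stricter limits. Without the block, 1 was called with 2 states alone and 1 to 2 when a line was left out. Between P12 and resistant cells 1 was called, 2 with the cell line as a replicate block, 0 to 1 when a line was left out, and 0 with pseudocounts of 0.5 or 8, no filter, upper quartile rescaling, no trend, the stricter limits, or 2 states alone with or without the block. The block changed no other call of the 7 genes. Calls it changed in the gene lists stand beside their counts. Rescaling moved the median log2 change of all genes between P12 and resistant cells from 0.02 to 0.11.

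Signs turned for small changes that had not passed the test. With a line left out, the log2 fold changes that crossed 0 were, between resistant and parental cells, those of Araf (-0.15 to 0.040, positive without line #7) and Mapk3 (-0.18 to 0.35, negative without line #10), and between P12 and resistant cells that of Map2k1 (-0.12 to 0.14, negative without line #10). For P5 against resistant cells they were those of Map2k1 (-0.80 to 0.020, positive without line #3) and Araf (-0.066 to 0.45, negative without line #7), and for P5 against parental cells those of Araf (-0.026 to 0.31, negative without line #7) and Mapk3 (-0.49 to 0.22, positive without line #3 at 0.029 or line #9). The block turned Mapk3 in P5 against resistant cells (0.038) and Araf (-0.021) and Mapk3 (0.11) in P5 against parental cells. With 2 states alone and the block the turned values were Mapk3 (0.29) and Nras (-0.0017) in P5 against resistant cells and Araf (-0.070) in P5 against parental cells. The median neighbor change from parental to resistant cells turned in some lines with other numbers of neighbors. With 5 on each side it turned for Nras (0.043) and Araf (0.20) in line #4, Araf in line #10 (-0.25) and Braf in line #6 (0.027). It turned as well for Map2k1 in lines #3 (-0.045) and #4 (-0.15). With 20 on each side it turned for Araf in line #4 (0.025) and Map2k1 in line #10 (0.12). Medians that turned in the other comparisons are not listed. The cause was not tested.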
